A study of Mus musculus with 16 samples.

Results

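The genes described here are the chemokine ligands and chemokine receptors of enriched mouse LLC1 tumour cells, other than the neutrophil-attracting ligands Cxcl1, Cxcl2, Cxcl3 and Cxcl5, their receptor Cxcr2, and Cxcl10. Every other row of the expression table whose symbol begins as a Ccl, Ccr, Cxcl, Cxcr, Cx3c, Xcl or Xcr gene was taken, which gave 31 of 24334 genes. This family was chosen with earlier results of these data known, so its shares are not those of a set picked blind. The 31 comprise 19 ligands and 12 receptors. Testing required 4 or more of the 16 libraries to exceed the table's lowest value by at least 1 on the log2 scale, a rule met by 14 ligands and 6 receptors.

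Chemokines are small secreted proteins that direct the movement of leukocytes along a gradient, and their receptors are G protein-coupled receptors on the responding cell. CC ligands such as Ccl2 and Ccl7 draw monocytes out of the marrow and into tissue through Ccr2, and CXC ligands induced by interferon-gamma, such as Cxcl9 and Cxcl11, draw activated T cells through Cxcr3. In tumours the ligands are made by carcinoma cells, fibroblasts and myeloid cells alike, while most of the receptors are carried by leukocytes.

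RNA was sequenced from tumour cells enriched out of mice bearing LLC1 tumours, a line derived from a mouse Lewis lung carcinoma. The mice received TMP195 at 50 mg/kg, a class IIa histone deacetylase inhibitor, MYCi975 at 50 mg/kg, a small-molecule inhibitor of MYC, both compounds together (Combo, for which the single doses are not stated), or DMSO as Vehicle, for 16 days. Each of the 4 groups holds 4 libraries. The labels give no strain, age or sex of the host, do not say how tumour cells were enriched or whether each library came from its own mouse, and the p-values therefore reflect only how far libraries of 1 group differ, part of which may be technical.

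Values are the deposited variance-stabilised ones, on a scale close to log2 on which differences of weakly expressed genes are compressed, with a common lowest value of 4.84 in every library. Depth per library is unknown. The number of genes at the lowest value ran from 1960 to 3130 per library. Of the 5 carcinoma markers looked at, Krt8, Krt18 and Krt19 were tested and Epcam and Cdh1, at most 6.17 and 6.07, reached the needed height in too few libraries. Leukocyte transcripts were present in the enriched material: the mean of 6 leukocyte markers (Ptprc, Cd53, Coro1a, Laptm5, Itgb2 and Evi2b; Cd52, Rac2 and Was did not meet the testing rule) was 8.20, 7.42, 6.73 and 6.96 in the TMP195 libraries, 6.58, 6.38, 7.32 and 6.71 in the MYCi975 libraries, 6.44, 6.89, 6.36 and 6.67 in the Combo libraries and 6.55, 6.44, 6.57 and 6.89 in the Vehicle libraries. TMP195 replicate 1 and MYCi975 replicate 3 stand above the other libraries of their groups in these markers. In bulk RNA, fewer cells of a type and less RNA per cell cannot be told apart.

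Of the 13 CC ligands, 10 were tested (Ccl2, Ccl5, Ccl6, Ccl7, Ccl8, Ccl9, Ccl11, Ccl12, Ccl25 and Ccl28). Of the 5 CXC ligands, Cxcl9, Cxcl11 and Cxcl16 were tested, as was Cx3cl1, the single CX3C ligand. The tested receptors described here are Ccr1, Ccr2, Cxcr4, Cx3cr1 and Xcr1. The other 11 genes stayed low: Ccl3, Ccl4, Ccl27a, Cxcl12, Cxcl15, Ccr4, Ccr7, Ccr9, Ccr10, Cxcr5 and Cxcr6. Their highest value over all 16 libraries ran from 5.35 for Ccl4 to 5.84 for Ccl3 and Cxcl15, and each was at the lowest value of the table in at least 1 library, Ccr4 and Cxcr5 in 10 libraries each. Just inside the testing rule lay Ccl12, the mouse ligand of Ccr2 next to Ccl8, which reached the needed height in exactly 4 libraries. Just outside lay Ccl3, whose best library was 0.996 above the lowest value, and Cxcl15 at 0.993. At the other end, 11 of the 20 tested genes reached the height in all 16 libraries. Ccl12 was also the exception among the 20 when the libraries of any single group were set aside: the other 19 still met the rule of 4 libraries, and Ccl12 was left with 3.

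Pairing ligands with their receptors shows which axes were measured at both ends. Ccl2, Ccl7 and Ccl12 with Ccr2, Ccl6 and Ccl9 with Ccr1, and Cx3cl1 with Cx3cr1 were tested on both sides. Other pairs were tested on 1 side: the ligand alone for Ccl25 with Ccr9 and Cxcl16 with Cxcr6, and the receptor alone for Ccl3 with Ccr1 and Cxcl12 with Cxcr4.

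The genes on which the results below turn are Ccl6 and Ccl9, neighbouring CC ligands on mouse chromosome 11, and Ccr1 and Ccr2, close neighbours on chromosome 9. Ccl6 and Ccl9 bind Ccr1 in the mouse and attract myeloid cells. Their promoter windows, 300 bases that end shortly after the start of transcription, are shown 5′ to 3′ on the strand of the gene, from RefSeq on GRCm38.p6. The windows lie at chr11:83593038-83593337 for Ccl6, chr11:83578587-83578886 for Ccl9 and chr9:123968643-123968942 for Ccr1, all on the minus strand, and at chr9:124101933-124102232 for Ccr2 on the plus strand.
Ccl6: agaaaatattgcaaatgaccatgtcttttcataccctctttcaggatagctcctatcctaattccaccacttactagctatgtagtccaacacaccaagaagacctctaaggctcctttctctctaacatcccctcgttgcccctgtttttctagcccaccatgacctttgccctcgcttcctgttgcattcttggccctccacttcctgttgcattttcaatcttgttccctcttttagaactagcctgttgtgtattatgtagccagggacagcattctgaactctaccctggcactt
Ccl9: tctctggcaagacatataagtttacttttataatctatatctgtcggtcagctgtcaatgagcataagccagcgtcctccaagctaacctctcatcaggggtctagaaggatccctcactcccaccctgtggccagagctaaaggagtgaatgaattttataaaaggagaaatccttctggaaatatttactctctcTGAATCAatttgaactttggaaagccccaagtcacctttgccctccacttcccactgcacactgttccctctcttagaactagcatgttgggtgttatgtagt
Ccr1: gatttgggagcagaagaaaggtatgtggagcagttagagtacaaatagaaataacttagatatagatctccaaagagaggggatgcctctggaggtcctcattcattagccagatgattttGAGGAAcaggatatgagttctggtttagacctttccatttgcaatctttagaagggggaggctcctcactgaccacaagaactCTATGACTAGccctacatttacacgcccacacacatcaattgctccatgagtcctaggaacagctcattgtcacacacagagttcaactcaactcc
Ccr2: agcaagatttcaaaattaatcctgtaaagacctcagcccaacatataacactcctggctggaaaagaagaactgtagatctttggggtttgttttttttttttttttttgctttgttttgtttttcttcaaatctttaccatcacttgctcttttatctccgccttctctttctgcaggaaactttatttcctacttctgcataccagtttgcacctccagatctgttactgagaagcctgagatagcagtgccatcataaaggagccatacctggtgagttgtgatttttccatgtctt
Capitals mark matches, on either strand, to 4 motifs. The first is the E-box bound by MYC and MAX (CACGTG). The second is a loose form of the site of MEF2 factors, which class IIa histone deacetylases bind (CTANNNNTAG). The others are the core of the PU.1 site of myeloid genes (GAGGAA) and the AP-1 site (TGANTCA). The Ccr1 window held a match to the MEF2 letters and one to the PU.1 core. The Ccl9 window held an AP-1 match, and the Ccl6 and Ccr2 windows held none of the 4. No 2 matches overlap. The MEF2 letters allow any base at the 4 middle positions, TGAC in Ccr1, so a match need not be a MEF2 site. Binding was not tested. The Ccl6 and Ccl9 windows share a stretch of 13 letters (gccctccacttcc), one of 12 (acctttgccctc) and one of 11 (ttagaactagc). RefSeq windows were matched for 20 of the 31 genes and for 13 of the 20 tested ones. Among those 13, the E-box letters were found in 1 (Xcr1), the MEF2 letters in 2 (Ccr1 and Cx3cr1), the PU.1 core in 4 (Ccl12, Ccl8, Ccr1 and Cx3cl1) and the AP-1 letters in 3 (Ccl28, Ccl9 and Cxcl9). Over all 32851 windows of this length the shares were 7.15%, 3.69%, 28.3% and 7.81%, in the same order.

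Sequence shared between genes could divide reads between them, so the words of 31 letters in each gene's GENCODE M21 transcripts were looked up in the transcripts of all other genes. Among the tested genes the share found elsewhere ran up to 3.75% for Ccl9, led by Smarcb1 and Sphk1, which are not chemokine genes. For Ccr2 the share was 3.41%. Ccl27a, which was not tested, shared 57.0% with other annotated genes, and its values are uncertain.

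**Figure D1:**
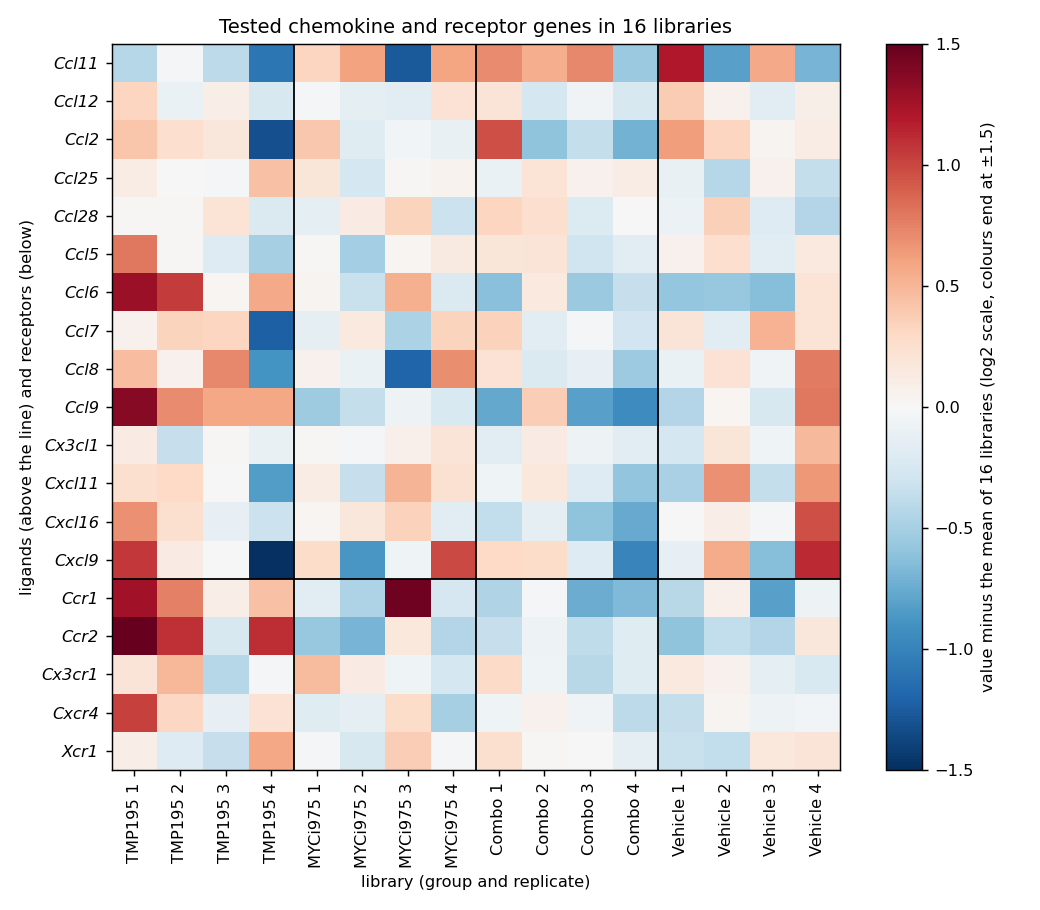
Value of 19 of the 20 tested genes in each of the 16 libraries, as the difference from that gene's mean over all libraries (log2 scale; colours end at 1.5 on either side). Columns are libraries by group and replicate, ligands stand above the horizontal line and receptors below it. TMP195 replicate 1 is the highest library for Ccl5, Ccl6, Ccl9, Ccr2 and Cxcr4, and TMP195 replicate 4 the lowest for Ccl2, Ccl7, Cxcl9 and Cxcl11.

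Under TMP195 the myeloid ligands Ccl6 and Ccl9 and the receptors Ccr1 and Ccr2 had higher means than under Vehicle, by 0.77 to 1.26 on the log2 scale, while the monocyte and T cell attractants Ccl2, Ccl7 and Cxcl9 had differences of −0.40, −0.31 and −0.39. Those 3 negative signs rested on TMP195 replicate 4: without it the differences were 0.0049, 0.05 and 0.16. None of the 20 genes passed the test: 0 were called at an adjusted p under 0.05 (limma, Benjamini-Hochberg over 15715 genes), as were 0.0% of all genes. At an unadjusted p under 0.05, 6 of the 20 were higher and 0 were lower, where 4.88% of all genes passed in either direction. The 6 receptors all had positive differences, with a median of 0.58, and the 14 ligands divided into 4 above and 10 below 0, with a median of −0.13. This division of the ligands also rested on TMP195 replicate 4: without it 12 of the 14 ligands and 5 of the 6 receptors lay above 0, with medians of 0.09 and 0.50. The median over all genes was −0.01.

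Ccl6, a mouse CC ligand made by myeloid cells, measured 7.71, 7.47, 6.45 and 6.98 in the TMP195 libraries, 6.46, 6.08, 6.95 and 6.20 in the MYCi975 libraries, 5.79, 6.56, 5.86 and 6.07 in the Combo libraries and 5.84, 5.84, 5.77 and 6.62 in the Vehicle libraries. The 4 TMP195 values lay at or above 6.45, and 3 of the 4 Vehicle values lay at or under 5.84, but the groups overlapped through Vehicle replicate 4. The means were 7.15 ± 0.56 in TMP195 and 6.02 ± 0.40 in Vehicle libraries (SD, n = 4 each), a difference of 1.13 with a standard error of 0.27 (limma, unadjusted p = 0.000664, adjusted p = 0.904). Ccl9, which binds Ccr1 as Ccl6 does, measured 7.91, 7.26, 7.13 and 7.13 in the TMP195 libraries, 6.01, 6.19, 6.48 and 6.32 in the MYCi975 libraries, 5.78, 6.92, 5.74 and 5.61 in the Combo libraries and 6.11, 6.58, 6.31 and 7.34 in the Vehicle libraries. TMP195 replicate 1 stood above the other TMP195 libraries, and the group overlapped Vehicle through Vehicle replicate 4. The difference of Ccl9 was 0.77 (SE 0.29, 95% interval 0.16 to 1.38, limma adjusted p = 0.945).

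Ccr2, the receptor through which monocytes follow Ccl2, measured 8.04, 7.32, 5.98 and 7.32 in the TMP195 libraries, 5.65, 5.52, 6.37 and 5.78 in the MYCi975 libraries, 5.87, 6.15, 5.83 and 6.03 in the Combo libraries and 5.61, 5.84, 5.78 and 6.38 in the Vehicle libraries. In 3 TMP195 libraries it was above every other library, while TMP195 replicate 3 sat among the Vehicle values. The difference was 1.26 (SE 0.31, limma unadjusted p = 0.000873, adjusted p = 0.945). Without TMP195 replicate 3 it was 1.65, with an adjusted p of 0.0182 in limma. Leaving out the lowest TMP195 library raises the difference by construction, so that result adds no support. How many of all genes passed in that fit is not given here. Ccr1, a receptor of monocytes and neutrophils, measured 7.30, 6.80, 6.14 and 6.49 in the TMP195 libraries, 5.87, 5.59, 7.50 and 5.80 in the MYCi975 libraries, 5.59, 6.02, 5.30 and 5.38 in the Combo libraries and 5.63, 6.12, 5.23 and 5.98 in the Vehicle libraries. Its TMP195 and Vehicle values did not overlap, a pattern shown by this 1 of the 20 genes and by 2.5% of all genes, and its difference was 0.94 (SE 0.35, limma adjusted p = 0.945). Both receptors lay near the floor in several libraries outside TMP195. The height needed for testing was reached by Ccr1 in 2 Vehicle libraries and 1 Combo library. Ccr2 reached it in 2 Vehicle and 3 Combo libraries, as did Ccl6.

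Ccl25, a ligand known for drawing lymphocytes to thymus and gut through Ccr9, had positive differences in all 3 treated groups. It measured 9.04, 8.92, 8.91 and 9.37 in the TMP195 libraries, 9.11, 8.66, 8.94 and 8.98 in the MYCi975 libraries, 8.82, 9.13, 8.99 and 9.04 in the Combo libraries and 8.81, 8.49, 8.99 and 8.57 in the Vehicle libraries. All 4 TMP195 values exceeded 3 of the Vehicle values. Its difference from Vehicle was 0.34 (SE 0.14) under TMP195, 0.21 (SE 0.14) under MYCi975 and 0.28 (SE 0.14) under the combination, and these 3 differences share the Vehicle libraries. The 95% intervals were 0.04 to 0.64, −0.09 to 0.51 and −0.02 to 0.58, so those of MYCi975 and Combo reach 0. Its receptor Ccr9 stayed at or under 5.74 in every library. Cxcr4, the receptor of Cxcl12 on many leukocytes and on tumour cells, was the sixth gene under the unadjusted threshold, with a difference of 0.46 (SE 0.21). It too lay near the floor, and reached the height needed for testing in 3 TMP195 and 2 Vehicle libraries.

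**Figure D2:**
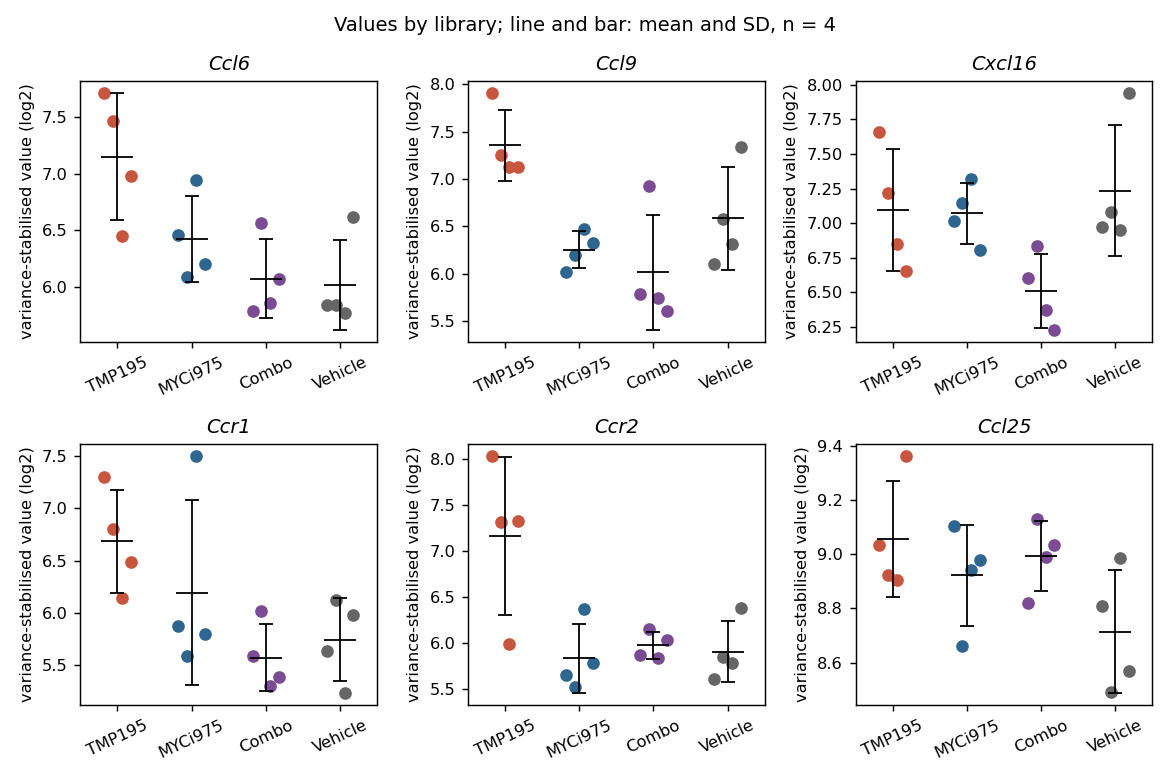
Variance-stabilised values (log2) of Ccl6, Ccl9, Cxcl16, Ccr1, Ccr2 and Ccl25, 1 point per library, with the mean and SD of each group of 4 libraries. Ccr1 lies between 6.14 and 7.30 in TMP195 and between 5.23 and 6.12 in Vehicle libraries, and Cxcl16 between 6.22 and 6.83 in Combo and between 6.95 and 7.94 in Vehicle libraries.

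The 6 leukocyte markers all had positive TMP195 differences as well, with a median of 0.73, and none was called. Ptprc, the pan-leukocyte phosphatase CD45, differed by 1.13 (SE 0.43). Among single lineages, the macrophage markers (4 of 9 tested, among them Cd68, Csf1r and Mrc1) had library means of 6.16 to 7.28 in TMP195, 5.998 to 6.09 in MYCi975, 5.98 to 6.31 in Combo and 6.05 to 6.45 in Vehicle libraries. The neutrophil markers (5 of 8 tested) had library means of 6.79 to 7.63 in TMP195, 6.26 to 8.16 in MYCi975, 6.10 to 6.92 in Combo and 6.32 to 6.89 in Vehicle libraries. Only 1 of 7 T cell, 1 of 5 B cell and 0 of 5 natural killer cell markers were tested, against 4 of 5 dendritic cell, 2 of 5 endothelial and 6 of 6 fibroblast markers, and of the listed markers that the table holds, none was at the lowest value in all 16 libraries. With the leukocyte marker mean as a term in the model, the TMP195 differences were 0.47 for Ccl6, 0.51 for Ccr2, 0.18 for Ccr1, 0.26 for Ccl9 and 0.04 for Cxcr4. Without TMP195 replicate 1, and without the term, they were 0.95, 0.97, 0.73, 0.59 and 0.24, in the same order. With the marker mean in the model 2 of the 20 genes, Ccl6 and Ccr2, were higher at an unadjusted p under 0.05. In that model 2 were lower, Cxcl16 at −0.59 and Ccl5 at −0.49. The 4.88% of all genes given above holds for the model without that term.

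Under MYCi975 no chemokine or receptor gene stood out from Vehicle. None of the 20 was called (limma; 0.0% of all genes were), 0 passed an unadjusted p under 0.05, which 3.03% of all genes did, and 0 had groups without overlap, against 1.5% of all genes. The median of the 20 differences was −0.03, with 7 above and 13 below 0, beside a median of −0.01 over all genes. The 2 smallest p-values belonged to Ccl6, at 0.40 (SE 0.27), and Ccl25, at the 0.21 given above (limma adjusted p = 0.999 for both). The intervals leave room for sizeable differences: that of Cxcl9 ran from −1.24 to 0.95 and that of Ccr1 from −0.29 to 1.19. MYCi975 replicate 3 alone had a high Ccr1, at 7.50 beside 5.59 to 5.87 in the other MYCi975 libraries. It was also the library with the highest neutrophil marker mean of the study, 8.16.

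**Figure D3:**
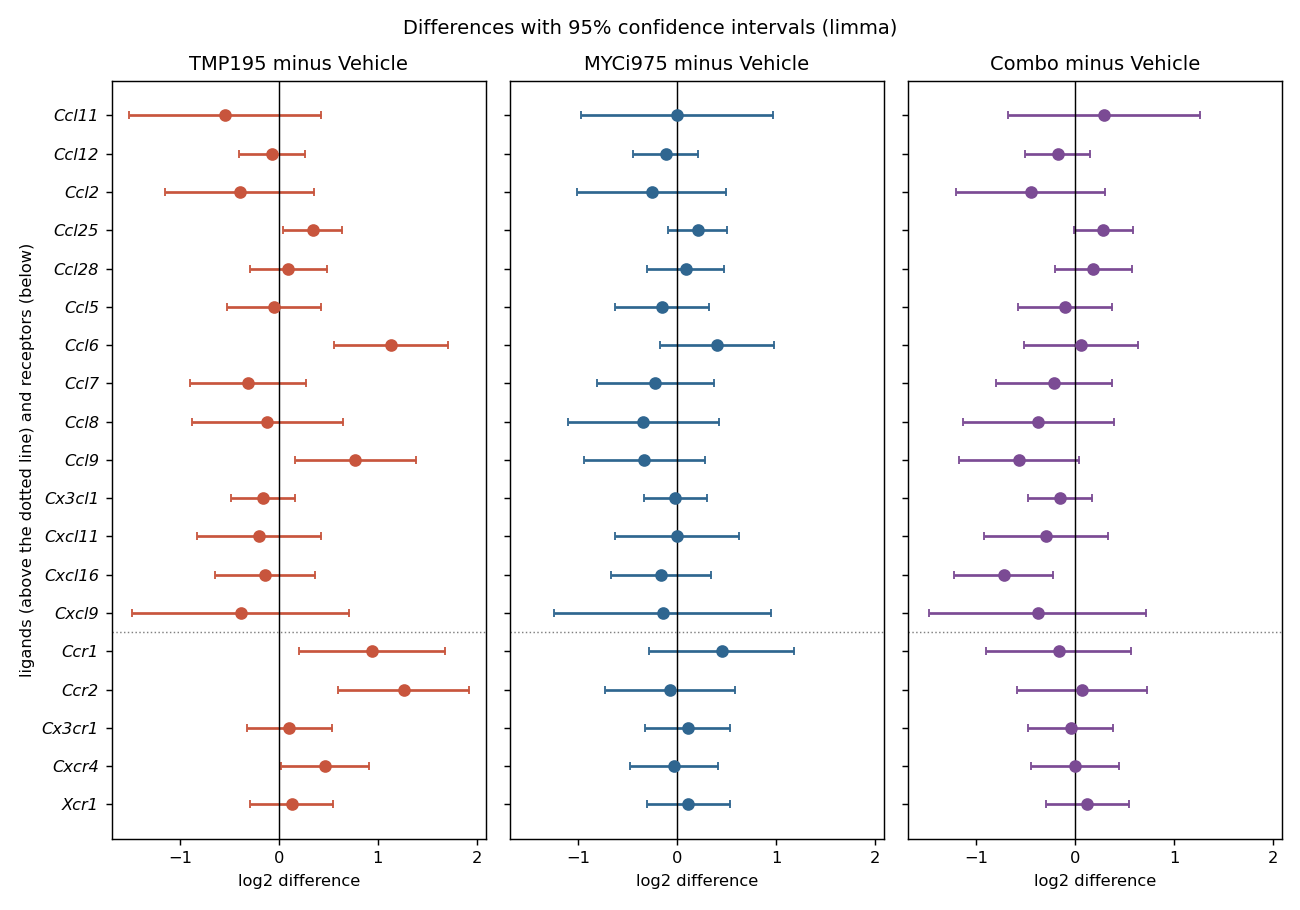
Difference of 19 of the 20 tested genes from Vehicle (log2, points) with its 95% confidence interval from limma (bars), in the TMP195, MYCi975 and Combo libraries. Under TMP195 the intervals of Ccl6, Ccl9, Ccl25, Ccr1, Ccr2 and Cxcr4 lie above 0, under MYCi975 every interval shown spans 0, and under Combo the interval of Cxcl16 lies below 0.

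Under the combination the 20 genes differed from Vehicle about as often as all genes did. None of the 20 was called (limma; 0.0% of all genes were), and 1 of 20, Cxcl16, passed an unadjusted p under 0.05, beside 4.09% of all genes. The median of the 20 differences was −0.13, with 6 above and 14 below 0, and that of all genes −0.01. Without the 4 libraries numbered 4 the median of the 20 was 0.02. Among the 14 ligands, 10 lay below 0, with a median of −0.20. The 6 receptors had a median of −0.02, or 0.003 when each library was centred on its median.

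Cxcl16, a membrane-anchored ligand that Adam10 sheds and that also serves as a scavenger receptor, measured 7.66, 7.22, 6.85 and 6.65 in the TMP195 libraries, 7.01, 7.14, 7.32 and 6.80 in the MYCi975 libraries, 6.61, 6.83, 6.37 and 6.22 in the Combo libraries and 6.97, 7.08, 6.95 and 7.94 in the Vehicle libraries. The Combo values lay wholly below the Vehicle values, as was the case in either direction for 3.32% of all genes. They also lay largely below those of the single compounds, where 1 of the 4 Combo values, 6.83, exceeded the lowest TMP195 and the lowest MYCi975 value. The means were 6.51 ± 0.27 in Combo and 7.23 ± 0.47 in Vehicle libraries (SD, n = 4 each), a difference of −0.73 (SE 0.24, limma unadjusted p = 0.00731, adjusted p = 0.987). Adding the leukocyte mean to the model left it at −0.71, and without the 4 libraries numbered 4, of which Vehicle replicate 4 holds the highest Cxcl16 value, it was −0.40. Its receptor Cxcr6, found on activated T cells, stayed at or under 5.39. Ccl9 had a Combo difference of −0.57 (SE 0.29), and its Combo libraries spread widely, with replicate 2, at 6.92, far above the 5.61 to 5.78 of the others. Without the libraries numbered 4 that difference was −0.18.

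Set against TMP195 alone, Ccl6, Ccl9, Ccr1, Ccr2, Cxcl16 and Cxcr4 were lower in Combo libraries at an unadjusted p under 0.05, 6 of 20 genes with none higher, where 5.33% of all genes passed in either direction. None was called after adjustment (limma; 0.0% of all genes were). Other genes of monocytes and their ligands did not pass that threshold, with differences of −0.06 (SE 0.36) for Ccl2, 0.09 (SE 0.28) for Ccl7, −0.26 (SE 0.36) for Ccl8 and −0.15 (SE 0.20) for Cx3cr1. All 6 receptors lay below 0, with a median of −0.60, and 9 of the 14 ligands did so, with a median of −0.06, or 0.04 without TMP195 replicate 1 and −0.31 without TMP195 replicate 4. The TMP195 libraries enter both this comparison and the one with Vehicle, so the 2 sets of differences are not independent.

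For Ccl9, the means were 6.01 ± 0.61 in Combo and 7.36 ± 0.37 in TMP195 libraries (SD, n = 4 each). Every Combo value was below every TMP195 value, which was also true of Ccr1, and 3.37% of all genes showed such a separation in either direction. The difference of Ccl9 was −1.34 (SE 0.29, 95% interval −1.95 to −0.73, limma unadjusted p = 0.000229, adjusted p = 0.325). It was the smallest p of any of the 20 genes in the 8 comparisons between groups. With sample quality weights the adjusted p of Ccl9 in limma was 0.0375, and how many of all genes passed with those weights is not given here. The difference of Ccr2 was −1.19 (SE 0.31, limma adjusted p = 0.561). Without TMP195 replicate 3, its lowest TMP195 library, it was −1.59 with an adjusted p of 0.0304 in limma. That omission enlarges the difference by construction and adds no support. Those of Ccl6 and Ccr1 were −1.08 (SE 0.27) and −1.11 (SE 0.35).

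The 6 leukocyte markers lay lower in Combo than in TMP195 libraries as well, with a median of −0.76. With their mean in the model the Combo minus TMP195 differences were −0.81 for Ccl9, −0.40 for Ccl6, −0.42 for Ccr2 and −0.32 for Ccr1. In that model 1 of the 20 genes was lower at an unadjusted p under 0.05. The 5.33% of all genes given above holds for the model without that mean. Ccl11, the eosinophil attractant eotaxin, pointed the other way, at 0.84 (SE 0.46). It measured 8.54, 8.93, 8.57 and 7.88 in the TMP195 libraries, 9.29, 9.56, 7.71 and 9.55 in the MYCi975 libraries, 9.68, 9.51, 9.69 and 8.41 in the Combo libraries and 10.16, 8.15, 9.54 and 8.27 in the Vehicle libraries. Within each group the Ccl11 values spread by more than 1 unit, the Combo and TMP195 groups overlapped through Combo replicate 4, and the unadjusted p was 0.0853.

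Set against MYCi975 alone, Cxcl16 again had the smallest p, with a Combo minus MYCi975 difference of −0.56 (SE 0.24, limma unadjusted p = 0.0309). It was the 1 gene of 20 under the unadjusted threshold, which 2.32% of all genes met, and 0 of the 20 were called (0.0% of all genes). No gene of the 20 had groups without overlap, beside 1.71% of all genes. Ccr1 had the second smallest p, at −0.62 (SE 0.35), with the high MYCi975 replicate 3 in that mean.

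Whether the combination departed from the sum of the single compounds was asked with the interaction, Combo minus MYCi975 minus TMP195 plus Vehicle. That reading holds only if Combo held each compound at its single dose, which the labels do not state. It was negative for Ccl6, at −1.49 (SE 0.39), for Ccr1, at −1.56 (SE 0.49), for Ccr2, at −1.12 (SE 0.44) and for Ccl9, at −1.01 (SE 0.41). These 4 of 20 genes passed an unadjusted p under 0.05, as did 3.0% of all genes, and none was called (limma, 0.0% of all genes). All 6 receptors had negative interactions, with a median of −0.75, and the ligands had a median of 0.02, or −0.003 when each library was centred on its median. Without TMP195 replicate 4 the median of the ligands was −0.18, with 12 of 14 below 0. The 6 leukocyte markers had a median interaction of −0.91, with 5 of 6 below 0. With their mean in the model the interactions were −0.68 for Ccl6, −0.63 for Ccr1, −0.20 for Ccr2 and −0.38 for Ccl9. In that model 1 gene was lower at an unadjusted p under 0.05, Ccl6, and 1 higher, Ccl5 at 0.65. Of the 20 genes, 12 lay above 0, with a median of 0.07. The 3.0% of all genes holds for the model without that mean.

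Pooling the libraries by compound gave 8 against 8. With any MYCi975 against none, 3 of 20 genes were lower at an unadjusted p under 0.05 and 0 were higher, beside 5.32% of all genes. Ccl9 was lower, at −0.84 (SE 0.20, limma unadjusted p = 0.000744, adjusted p = 0.677), and 16 of the 20 genes lay below 0. Its level was 5.61 to 6.92 in the 8 libraries with MYCi975, against 6.11 to 7.91 in the 8 without. Ccr2 followed at −0.63 (SE 0.22), and Cxcl16 at −0.38 (SE 0.17). The pooled values join unlike groups: against Vehicle, Ccr2 was at 1.26 under TMP195, −0.07 under MYCi975 and 0.07 under Combo. Ccl9 was at 0.77, −0.33 and −0.57 in the same order, and Cxcl16 at −0.14, −0.16 and −0.73. Without MYCi975 replicate 3, 6 genes were lower and 1, Ccl11, higher at that threshold, and without TMP195 replicate 3, 5 were lower and 0 higher. The 5.32% of all genes holds for all 16 libraries without the marker mean in the model, and not for these smaller sets. All 6 leukocyte markers were lower with MYCi975 than without, with a median of −0.26. MYCi975 alone against Vehicle gave these markers a median of 0.13. With their mean in the model Ccl9 was at −0.62 and Ccr2 at −0.32, the 2 genes then under the unadjusted threshold, and the 20 genes divided into 10 above and 10 below 0, with a median of 0.0047. With any TMP195 against none, 1 of 20 genes, Ccr2, was higher at an unadjusted p under 0.05, at 0.70 (SE 0.22), beside 4.37% of all genes. All 6 leukocyte markers were higher with TMP195 than without, with a median of 0.31. Against Vehicle their medians were 0.73 under TMP195 and −0.08 under Combo. In both poolings 0 of the 20, and 0.0% of all genes, were called after adjustment. The second smallest p with TMP195 belonged to Cxcl16, at −0.35 (SE 0.17).

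The pairs Ccl2 with Ccr2 and Cx3cl1 with Cx3cr1 can be read side by side. Ccl2, the main monocyte attractant, measured 12.10, 11.93, 11.84 and 10.35 in the TMP195 libraries, 12.08, 11.49, 11.64 and 11.56 in the MYCi975 libraries, 12.64, 11.07, 11.32 and 10.96 in the Combo libraries and 12.30, 12.00, 11.71 and 11.79 in the Vehicle libraries. It was above 10.3 in every library and showed no group of its own: its difference from Vehicle was −0.40 (SE 0.36) under TMP195, where replicate 4 was far the lowest, and −0.45 (SE 0.36) under Combo. Without that library the Ccl2 difference under TMP195 was 0.0049. Its receptor Ccr2 had a TMP195 difference of 1.26, or 1.21 without that library. Cx3cl1, the membrane-bound ligand fractalkine, and Cx3cr1, its receptor on monocytes and microglia, had narrower ranges than Ccl2 and Ccr2, from 8.35 to 9.19 and from 7.16 to 8.09 over the 16 libraries. The difference from Vehicle farthest from 0 was −0.16, for Cx3cl1 under TMP195, and their TMP195 intervals were −0.48 to 0.16 and −0.33 to 0.53. Ccl5, an attractant of T cells and monocytes, was near the floor, from 5.22 to 6.52, with a TMP195 difference of −0.05 (SE 0.23).

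The ligands of Cxcr3, which interferon-gamma induces, varied widely between libraries of 1 group. Cxcl9 measured 10.31, 9.38, 9.25 and 7.45 in the TMP195 libraries, 9.53, 8.38, 9.20 and 10.25 in the MYCi975 libraries, 9.55, 9.53, 9.06 and 8.27 in the Combo libraries and 9.13, 9.82, 8.62 and 10.38 in the Vehicle libraries. The lowest value of all, in TMP195 replicate 4, and the second highest, in TMP195 replicate 1, fell in the same group, and the standard error of its differences was 0.52. Cxcl11 ranged from 5.14 to 6.66, and TMP195 replicate 4 was its lowest library too. The remaining ligands gave no difference from Vehicle under the unadjusted threshold in any group: Ccl7 ranged from 9.21 to 10.95, Ccl8 from 5.62 to 7.60, Ccl12 from 5.42 to 6.05 and Ccl28, a ligand of mucosal tissues, from 6.14 to 6.94. Xcr1, the receptor that marks cross-presenting dendritic cells, ranged from 6.17 to 7.12.

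Because the leukocyte marker mean differed between libraries of 1 group, each gene was also fitted on the leukocyte marker mean within groups, as a slope in log2 units per log2 unit of that mean. Ccl6 and Ccr2 rose with the marker mean: their slopes were 0.93 (SE 0.15, limma adjusted p = 0.012) and 1.05 (SE 0.18, adjusted p = 0.0133). They were the 2 of 20 genes called, both upward, where 0.299% of all genes were called upward. At an unadjusted p under 0.05 a further 6 had slopes above 0, for 8 of 20 in all, where 4.37% of all genes did so: Ccr1, Cxcr4, Ccl5, Cxcl16, Ccl9 and Cxcl9. The median slope of the 20 genes was 0.38, with 17 above 0, and the median of all genes was −0.003. Receptors had a median slope of 0.65 (6 of 6 above 0) and ligands one of 0.18 (11 of 14).

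Those slopes rest on few libraries. Without TMP195 replicate 1 the called genes numbered 1, Ccl6, with Ccr2 no longer passing at a slope of 1.11. Without TMP195 replicate 3, or without MYCi975 replicate 3, neither passed, with slopes of 0.85 and 0.93 for Ccl6 and 0.77 and 1.08 for Ccr2. Without both TMP195 replicate 1 and MYCi975 replicate 3, neither of the 2, and no gene of the table, passed, while the slopes themselves were 1.41 for Ccl6 and 1.22 for Ccr2.

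**Figure D4:**
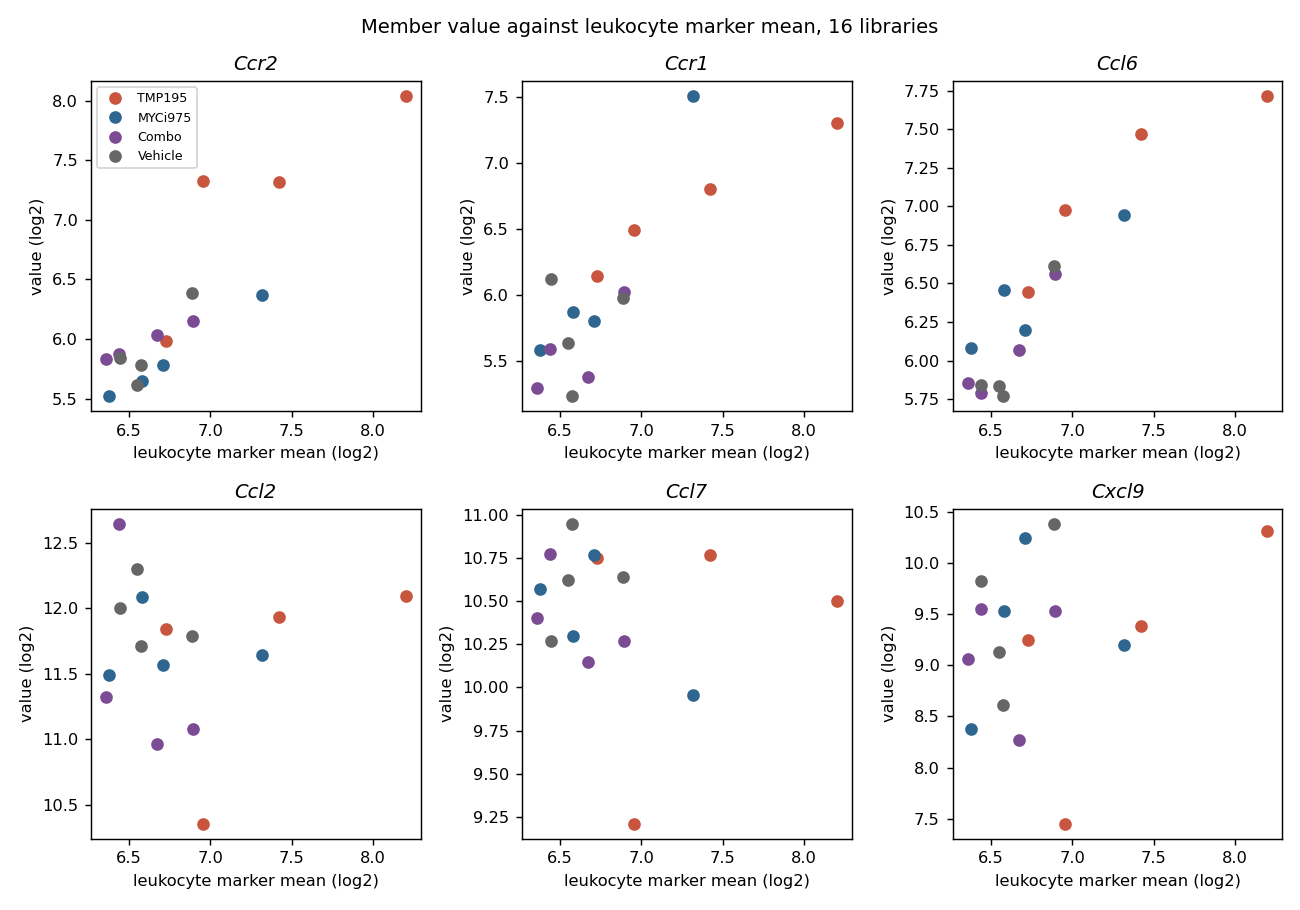
Value (log2) of 6 genes against the mean of 6 leukocyte markers (log2), 1 point per library, coloured by group. Ccr2, Ccr1 and Ccl6 in the upper row are high where the marker mean is high, as in TMP195 replicate 1 at 8.20. In the lower row Ccl2 and Ccl7 are scattered over that range. Cxcl9 beside them varies widely, with a slope of 1.01 (SE 0.46) on the marker mean within groups.

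The genes with the smallest slope p-values after the called pair were Ccr1, at 1.07 (SE 0.23, limma adjusted p = 0.0676), Cxcr4, at 0.59 (SE 0.16), Ccl5, at 0.62 (SE 0.17), and Cxcl16, at 0.63 (SE 0.18). Cxcr4 measured 6.92, 6.20, 5.77 and 6.10 in the TMP195 libraries, 5.71, 5.74, 6.17 and 5.40 in the MYCi975 libraries, 5.83, 5.96, 5.84 and 5.49 in the Combo libraries and 5.53, 5.94, 5.82 and 5.85 in the Vehicle libraries. Its highest library was TMP195 replicate 1, and the other 15 libraries lay at or under 6.20. Ccl5 was likewise highest in TMP195 replicate 1, at 6.52, with the other libraries at or under 5.99. At the other end stood Ccl7, at −0.01 (SE 0.28), Ccl28, at 0.03 (SE 0.19), Ccl25, at 0.04 (SE 0.14), and Ccl8, at −0.15 (SE 0.37), whose signs change with single libraries. Ccl7, a second Ccr2 ligand, measured 10.50, 10.76, 10.75 and 9.21 in the TMP195 libraries, 10.29, 10.57, 9.96 and 10.77 in the MYCi975 libraries, 10.77, 10.27, 10.40 and 10.15 in the Combo libraries and 10.62, 10.27, 10.95 and 10.64 in the Vehicle libraries. It was above 9.2 in every library and lowest in TMP195 replicate 4, and its slope interval ran from −0.61 to 0.59. Ccl8 measured 7.29, 6.89, 7.54 and 5.93 in the TMP195 libraries, 6.89, 6.73, 5.62 and 7.52 in the MYCi975 libraries, 7.04, 6.60, 6.70 and 6.28 in the Combo libraries and 6.72, 7.04, 6.77 and 7.60 in the Vehicle libraries. Its 2 lowest libraries were MYCi975 replicate 3 and TMP195 replicate 4. Ccl28 measured 6.60, 6.60, 6.79 and 6.36 in the TMP195 libraries, 6.43, 6.70, 6.92 and 6.26 in the MYCi975 libraries, 6.91, 6.84, 6.38 and 6.57 in the Combo libraries and 6.50, 6.94, 6.39 and 6.14 in the Vehicle libraries, with all 4 groups overlapping.

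**Figure D5:**
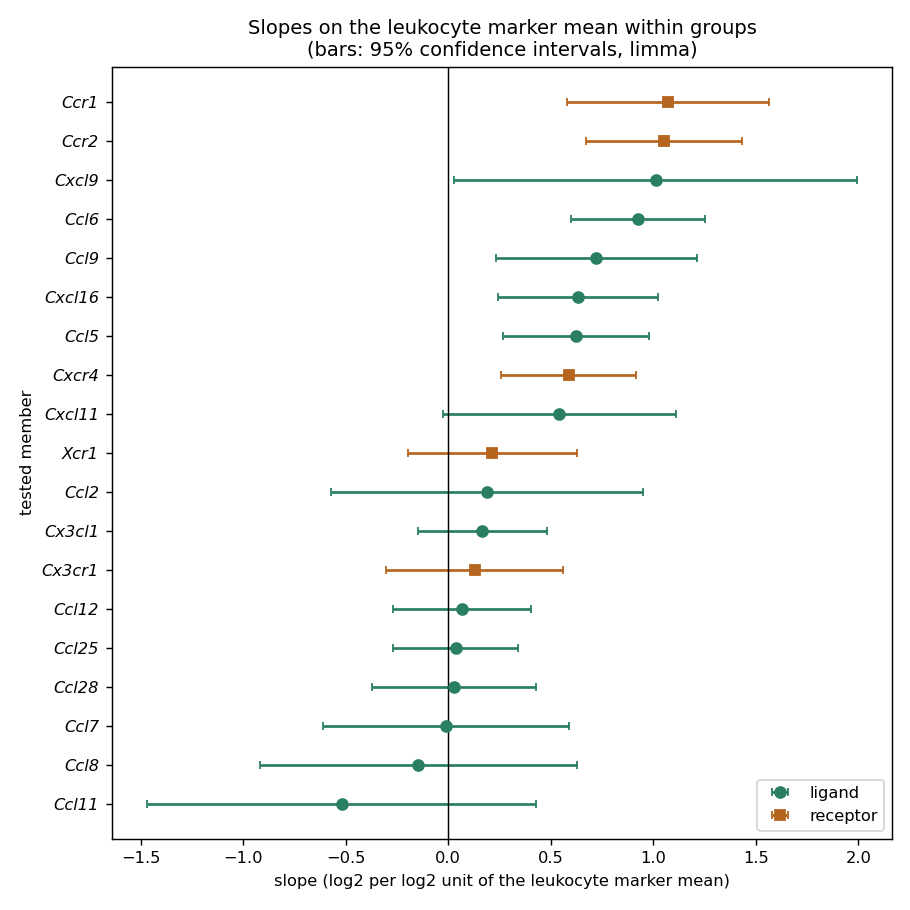
Slope of 19 of the 20 tested genes on the leukocyte marker mean within groups (log2 per log2 unit), with 95% confidence intervals from limma. Circles are ligands and squares receptors. The slopes run from 1.07 for Ccr1 to −0.52 for Ccl11, and those of Ccl6 and Ccr2 passed the adjusted threshold.

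The slopes can be laid along the chromosome. In RefSeq gene order, Ccl2, Ccl7, Ccl11, Ccl12 and Ccl8 lie side by side on chromosome 11 with no other coding gene between them, and their slopes were 0.19, −0.01, −0.52, 0.07 and −0.15. After 26 further coding genes come Ccl5, Ccl9, Ccl6, Ccl3 and Ccl4, again adjacent, and the 3 tested ones had slopes of 0.62, 0.72 and 0.93. In TMP195 against Vehicle the first run had differences of −0.40, −0.31, −0.55, −0.07 and −0.12, and the second −0.05, 0.77 and 1.13. Without TMP195 replicate 4 they were 0.0049, 0.05, −0.35, 0.015 and 0.21 in the first run and 0.12, 0.85 and 1.19 in the second. On chromosome 9, Xcr1, Ccr1 and Ccr2 lie within a stretch that has 2 other coding genes, both between Ccr1 and Ccr2, and their slopes were 0.22, 1.07 and 1.05. The difference between neighbouring runs was not tested.

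Genes that act around chemokines were read by the same fit, and none was called in the 3 comparisons with Vehicle. Of 7 atypical and decoy receptors, 3 were tested (Cmklr1, Ccrl2 and Ackr3), with medians of 0.24 under TMP195, −0.14 under MYCi975 and −0.23 under Combo. Cmklr1, the chemerin receptor, had a TMP195 difference of 0.58 (SE 0.21, limma unadjusted p = 0.0151). It was the 1 of the 3 under an unadjusted p of 0.05, beside 4.88% of all genes. Of 3 genes that process ligands, the sheddases Adam10 and Adam17 were tested, and Adam10, which releases Cxcl16 and Cx3cl1, had a Combo difference of 0.04 (SE 0.12).

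Of 20 receptor signalling genes, 18 were tested, and 3 were higher under TMP195 at an unadjusted p under 0.05: Arrb1, a beta-arrestin that takes receptors off the surface, by 0.84 (SE 0.22), Rgs1, which damps receptor signals in leukocytes, by 1.37 (SE 0.51), and Dock2, which moves leukocytes by activating Rac, by 0.78 (SE 0.31). Over all genes, 4.88% passed that threshold under TMP195 in either direction. The medians of the 18 were 0.08, −0.10 and −0.08 under TMP195, MYCi975 and Combo. All 9 transcription factors known to drive chemokine genes were tested. Under Combo 7 of the 9 lay below 0, with a median of −0.22. The 3 with the smallest p were Nfkb2, at −0.24 (SE 0.13), Rela, at −0.22 (SE 0.12), and Irf1, at −0.58 (SE 0.34). Of the 9, 0 passed an unadjusted p under 0.05, beside 4.09% of all genes.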

How the data were processed

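RNA of enriched LLC1 tumour cells was made into 16 libraries (4 each of TMP195, MYCi975, Combo and Vehicle) with a stranded total RNA kit, per the labels' protocols. The authors deposited variance-stabilised values close to a log2 scale for 24334 genes. Quantification was with Salmon (no version) and the build is named hg38, both per the submitters' processing notes, although samples and identifiers are mouse; the stabilising tool is not given in the sources used here. Total counts are unknown, so no interval or floor from counts is given. Symbols were matched for 23150 identifiers (95.1%).

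Genes at least 1 above the lowest value in 4 or more libraries (15715) were fitted with limma 3.58.1 in R 4.3.3 (1 mean per group, empirical Bayes with trend), two-sided, Benjamini-Hochberg over all genes within each of 8 comparisons and the slope on the leukocyte mean, called at an adjusted p under 0.05. The script was tested on simulated data.

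The members and lists were chosen with earlier results of these data known. Values per library are given mainly for the 2 genes with the smallest p in each comparison, the clearest pair, and the slope's 6 smallest and 4 largest p. Ccl11 and Cxcl9 are given in full as well. Ccl5, Cx3cl1 and Cx3cr1 are given by range, like the others. Values of 1 tested receptor and 1 macrophage marker are not reported here; both remain in the counts and medians. Genes outside the members come from fixed lists, up to 3 each by smallest p. Alternatives were other filters, moderation, scaling, weights, covariates, a replicate block and leaving out libraries.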

Additional observations from a re-analysis of the deposited data

Results flagged for a closer look

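Each of the 80 combinations of tested gene and group was searched for a library far from the other 3, by Dixon's criterion for 4 values. It found 8, and chance gives about 1 in 20. The high ones were Ccl6 in Vehicle replicate 4 at 6.62 (the others at 5.77 to 5.84), Cxcl16 in Vehicle replicate 4 at 7.94 (6.95 to 7.08), Ccl9 in TMP195 replicate 1 at 7.91 (7.13 to 7.26), Ccl9 in Combo replicate 2 at 6.92 (5.61 to 5.78) and Ccr1 in MYCi975 replicate 3 at 7.50 (5.59 to 5.87). The low ones were Ccl2 in TMP195 replicate 4 at 10.4 (11.8 to 12.1), Ccl11 in MYCi975 replicate 3 at 7.71 (9.29 to 9.56) and Ccl11 in Combo replicate 4 at 8.41 (9.51 to 9.69).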

How the results depend on the processing

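Of the 8 comparisons between groups, 6 had 0 genes called under every alternative run, and 2 did not. Leaving out single libraries gave 0 to 1 called for TMP195 minus Vehicle and for Combo minus TMP195. The gene called was Ccr2, without TMP195 replicate 3, its lowest TMP195 library, an omission that enlarges the difference by construction. Sample quality weights gave 1 for Combo minus TMP195 (Ccl9). These counts and those below are of the 20 tested genes, and the shares over all genes given above come from the fits without these changes. Whether calls rose over all genes in these settings is not stated here. The median difference of Combo minus TMP195 ran from −0.40 to −0.0396 when single libraries were left out. For the slope on the leukocyte mean, leaving out single libraries gave 0 to 3 called genes, leaving out TMP195 replicate 1 and MYCi975 replicate 3 gave 0, and the stricter filter, which tests 10 of the 20 genes and neither of the 2 called, gave 0 with a median slope of 0.15. Slopes near 0 changed sign: leaving out libraries gave −0.72 to 0.32 for Ccl8, −0.029 to 0.14 for Ccl25, −0.35 to 0.14 for Ccl28 and −0.30 to 0.21 for Ccl7, and quantile normalisation gave 0.036 for Ccl7; the cause was not tested. Replicate numbers met the rule for pairing only in part, and the samples were not treated as paired: same-numbered libraries correlated at −0.24 to 0.43 (median 0.19, 15 of 24 pairs over 0.1) and others at a median of −0.04 (10 of 72 over 0.1), and 9 of 16 correlated best with their own number. The same-numbered correlations ran from 0.20 to 0.43 for libraries numbered 1 and from 0.17 to 0.39 for those numbered 4. For numbers 2 and 3 they ran from −0.11 to 0.24 and from −0.24 to 0.12. Libraries numbered 1 and 4 thus shared part of their variation across groups, which the main fit does not model. With the replicate block 0 genes were called between groups and 2 for the slope. Depth is unknown, so the low genes carry the least certain values.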
